A study of Mus musculus with 130 samples.

Results

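The core pluripotency factors described here are 10 genes of the mouse embryo: Pou5f1, Sox2, Nanog, Sall4, Zfp42, Tfcp2l1, Prdm14, Tcl1, Lin28a and Tdgf1. They were chosen by name as a set, among 36040 genes with a symbol in the count table, and all 10 were among the 13192 genes abundant enough to be tested. Their counts were summed over transcripts and are given as CPM, counts relative to a library size that was scaled by TMM (trimmed mean of M-values). The embryos were B6129F1 zygotes collected 5 hours post fertilization and cultured in KSOM, an embryo medium, in wet chambers with no oil layer over them. From 6 hours post fertilization, 80 embryos received 10 µM SR1848 and 50 embryos received 0.1% DMSO, the solvent, and each was made into its own oligo-dT-primed Smart-seq2 library at the 2-cell stage. SR1848 is a small-molecule antagonist of the orphan nuclear receptor Nr5a2 (LRH-1), and the series asks what Nr5a2 does in zygotic genome activation, when the embryo begins to transcribe its own genes.

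Pou5f1 (OCT4), Sox2 and Nanog form the transcription-factor circuit that holds embryonic stem cells and the inner cell mass of the blastocyst in an undifferentiated state. Sall4, Zfp42, Tfcp2l1 and Prdm14 are nuclear factors that work around that circuit, Tcl1 is a cofactor of the AKT kinases, Lin28a binds RNA and blocks maturation of let-7 microRNAs, and Tdgf1 (Cripto) is a cell-surface co-receptor for Nodal. In the mouse some of these messages are stored by the oocyte and handed to the zygote, while others are first made in quantity from the embryonic genome at later cleavage stages. In stem cells Nr5a2 is known to bind at Pou5f1 and can stand in for OCT4 in reprogramming.

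Total estimated counts ran from 2730852 to 7824458 per SR1848 embryo and from 3173683 to 8438537 per DMSO embryo. The labels give 130 embryos here, 6 controls of the 56 in the design text being not analysed here, and do not say which embryos shared a female, a drop or a plate. The p-values below thus rest on the variation among embryos, some of it possibly technical, and an effect of SR1848 cannot be told apart from any handling that was common to its embryos. Nr5a2 itself averaged 10.6 ± 7.76 CPM with SR1848 and 96.4 ± 26.9 CPM with DMSO (SD), and all 80 SR1848 embryos were below every DMSO embryo. An antagonist may leave its target's message untouched, so this is no check of the labels. All 16 markers of the 2-cell stage were detected in each group, with a median summed level of 2499 CPM with SR1848 and 1025 CPM with DMSO. Cumulus, sperm and blood marker sums had medians of 26.4, 499 and 214 CPM with SR1848 and of 49.6, 203 and 36.5 CPM with DMSO. Single genes made up much of the sperm and cumulus sums. Odf2, the only sperm marker abundant enough to be tested, averaged 520 CPM with SR1848 and 211 CPM with DMSO. Amhr2, a cumulus marker, averaged 16.85 CPM with SR1848 and 43.99 CPM with DMSO. The sperm and cumulus sums thus do not by themselves show that such cells were present. No count of Smcp or Hbb-bt was seen with SR1848, and none of Inha, Tnp2, Smcp, Spata18, Hbb-bs or Hbb-bt with DMSO. Whether cumulus, sperm or blood cells were present, and their part in the results, was not tested.

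Every level below is relative to the rest of an embryo's RNA. More copies of a message and less of everything else cannot be told apart from relative levels, so each fold change was also computed with the summed counts of 37 oocyte transcripts as the library size (oocyte scaling). That sum itself made up 3.53% of counts with SR1848 and 1.63% with DMSO. Of all 13192 genes, 82.6% differed between the groups at an adjusted p under 0.05 (edgeR quasi-likelihood test), 47.2% being higher and 35.4% lower with SR1848, and the median log2 fold change was 0.30. Oocyte scaling moved that median by -1.33 to -1.03, and 11.9% of the called genes were then higher, against 57.1% with TMM. The oocyte transcripts of the sum themselves had a median of -0.48 with it, 5 of 35 tested being higher and 20 lower. A member's direction is therefore given with both scalings.

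The stretches upstream of 3 members are shown because their letters hold motifs of the factors in question, on GRCm38.p6 coordinates from RefSeq, which gave windows for 8 of the 10 members. Capitals mark the motif.
Nanog, chr6:122707239-122707488, plus strand: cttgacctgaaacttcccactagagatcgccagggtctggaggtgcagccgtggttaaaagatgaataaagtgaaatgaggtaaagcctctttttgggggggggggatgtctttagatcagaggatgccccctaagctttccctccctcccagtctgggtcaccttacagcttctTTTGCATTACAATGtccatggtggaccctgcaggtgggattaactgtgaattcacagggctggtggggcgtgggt
Zfp42, chr8:43307010-43307259, minus strand: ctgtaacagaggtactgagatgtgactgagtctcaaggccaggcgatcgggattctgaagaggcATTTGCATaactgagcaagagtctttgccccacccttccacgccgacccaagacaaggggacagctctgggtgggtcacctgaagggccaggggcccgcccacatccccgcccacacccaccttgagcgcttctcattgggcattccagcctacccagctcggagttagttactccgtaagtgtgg
Pou5f1, chr17:35505782-35506017, plus strand: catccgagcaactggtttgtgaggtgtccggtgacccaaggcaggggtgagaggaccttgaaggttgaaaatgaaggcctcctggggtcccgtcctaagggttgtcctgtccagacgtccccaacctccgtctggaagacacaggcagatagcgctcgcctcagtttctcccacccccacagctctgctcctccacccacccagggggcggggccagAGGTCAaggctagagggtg
The capitals upstream of Nanog are an OCT-SOX composite element, 75 to 62 bases before the start, which contains the SOX motif CATTGT on the opposite strand. Of 32851 mouse promoter windows, each the 250 bases before a start, 2 held this element (0.00609%), and both are overlapping windows of Nanog that hold the same copy. The capitals upstream of Zfp42 are a POU octamer (ATGCNAAT, read on the opposite strand), 186 to 179 bases before the start, and 2.86% of windows held it. The capitals upstream of Pou5f1 are the nuclear receptor hexamer AGGTCA, 33 to 28 bases before the RefSeq start. The Pou5f1 stretch is printed only up to the GENCODE start, which lies upstream of that RefSeq start, so fewer letters follow the hexamer. The hexamer was present in 14.02% of windows and also found, on the opposite strand, upstream of Sox2 and Nanog. The longer half-site that Nr5a2 prefers, AAGGTCA, was in 4.08% of windows and in none of the members' windows. Motifs were searched on both strands, the hexamer and the composite element were added after the windows had been read, and a match is only a match of letters.

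The 3 core factors were all higher in SR1848 embryos. Pou5f1 (chromosome 17, 35506018 to 35510772, plus strand, GENCODE M21 on GRCm38), which encodes OCT4, had 14.1 CPM in the lowest, 60.4 in the median and 138 in the highest SR1848 embryo, against 6.50, 22.2 and 49.9 CPM in the lowest, median and highest DMSO embryo. The groups overlapped, but 56 of 80 SR1848 embryos were above every DMSO embryo and 78 were above the DMSO median. The means were 63.4 ± 25.7 CPM with SR1848 and 23.5 ± 10.9 CPM with DMSO (SD), a 2.69-fold rise with SR1848 (log2 fold change 1.43, SE 0.12, edgeR adjusted p = 1.5e-21). With oocyte scaling the log2 fold change was 0.14 and did not pass (adjusted p = 0.26).

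Nanog (chromosome 6, 122707489 to 122714633, plus strand) encodes the homeodomain factor that completes the circuit. It had 1.82, 19.96 and 82.7 CPM in the lowest, median and highest SR1848 embryo, against 0.686, 4.31 and 11.6 CPM with DMSO. In SR1848 embryos Nanog was both high and uneven: 58 of 80 were above every DMSO embryo, 3 were below the DMSO median, and the coefficient of variation was 74.7% with SR1848 and 47.4% with DMSO. It rose 5.49-fold (log2 fold change 2.46, SE 0.20, edgeR adjusted p = 8.4e-23), and with oocyte scaling it was still higher, by 1.27 on the log2 scale (adjusted p = 5.0e-07). A log2 fold change larger in size than Nanog's was seen in 10.1% of the genes tested.

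Sox2 (chromosome 3, 34650405 to 34652461, plus strand), the HMG-box partner of OCT4, had the largest fold change of the 10. A count was present in 74 of 80 SR1848 embryos and in 21 of 50 DMSO embryos, and the lowest, median and highest levels were 0, 6.15 and 28.6 CPM with SR1848 against 0, 0 and 3.23 CPM with DMSO. Thus 60 SR1848 embryos were above the highest DMSO embryo, while the 6 SR1848 embryos without a count sat with most DMSO embryos at 0. The means were 7.84 ± 7.03 CPM with SR1848 and 0.409 ± 0.793 CPM with DMSO, an 18.3-fold rise (log2 fold change 4.19, SE 0.41, edgeR adjusted p = 6.7e-18). With oocyte scaling Sox2 was also higher (log2 fold change 3.22). These are few reads: the median SR1848 embryo had 26 Sox2 counts and the median DMSO embryo 0, and only 1.37% of tested genes had a larger change in either direction. Sox2 has a single exon and lies within the long noncoding gene Sox2ot on the same strand, which was not analysed here, so reads of unspliced Sox2ot RNA cannot be told apart from those of Sox2.

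**Figure D1:**
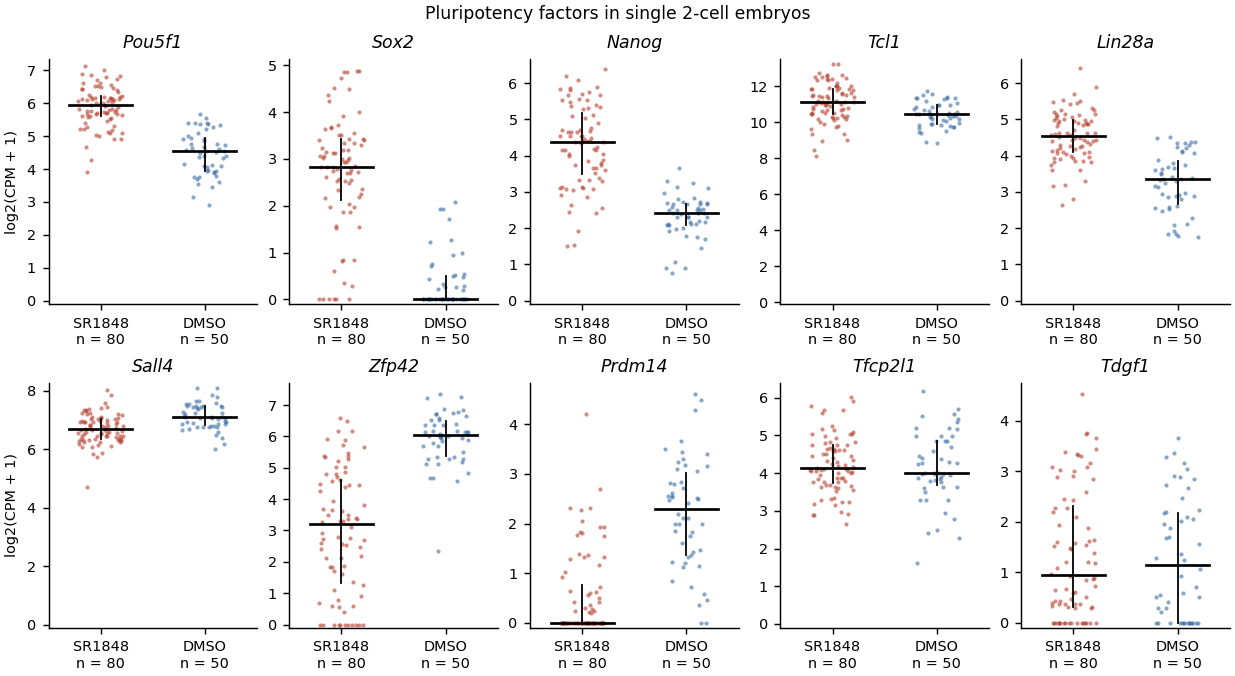
Level of each of the 10 factors in every embryo, as log2(CPM + 1) on the vertical axis, with SR1848 embryos (n = 80) left of DMSO embryos (n = 50) in each panel; each point is an embryo, the horizontal line is the median and the vertical line spans the interquartile range. Pou5f1, Sox2 and Nanog sit higher with SR1848, with 56, 60 and 58 embryos above every DMSO embryo, while Zfp42 and Prdm14 sit lower, and in no panel are the groups fully separate.

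Sall4, Zfp42 and Prdm14, all zinc-finger regulators of the stem-cell network, were lower with SR1848. Zfp42 (chromosome 8, 43295063 to 43306980, minus strand) encodes REX1, a widely used marker of the naive stem-cell state. It had 0, 8.19 and 94.1 CPM in the lowest, median and highest SR1848 embryo, against 4.03, 64.7 and 162 CPM with DMSO. No count was seen in 11 SR1848 embryos, 29 were below every DMSO embryo and 76 were below the DMSO median, but the highest SR1848 embryos overlapped the DMSO range. The fall was 4.17-fold (log2 fold change -2.06, SE 0.30, edgeR adjusted p = 8.8e-10), while limma-voom gave a log2 fold change of -3.57 and oocyte scaling of -3.08.

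Prdm14 (chromosome 1, 13113457 to 13127163, minus strand) encodes a PR-domain protein that represses FGF signalling and DNA methyltransferase genes in stem cells. It was scarce in both groups: 35 of 80 SR1848 embryos and 48 of 50 DMSO embryos had a count, with 0, 0 and 17.5 CPM in the lowest, median and highest SR1848 embryo against 0, 3.95 and 23.4 CPM with DMSO. The bulk of SR1848 embryos were at or near 0, and 76 were below the DMSO median. The fall was 5.83-fold (log2 fold change -2.54, SE 0.40, edgeR adjusted p = 4.8e-09), while limma-voom gave -3.27 and oocyte scaling -3.81.

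Sall4 (chromosome 2, 168748332 to 168767943, minus strand), a spalt-like zinc-finger protein that recruits the NuRD complex, is among the maternally stored messages. It had 24.9, 101 and 259 CPM in the lowest, median and highest SR1848 embryo, against 63.8, 135 and 273 CPM with DMSO. The groups overlapped almost throughout, 64 of 80 SR1848 embryos being below the DMSO median and 4 below every DMSO embryo. The difference was small, 1.33-fold lower, but past the threshold (log2 fold change -0.41, SE 0.087, edgeR adjusted p = 1.1e-05). Oocyte scaling gave -1.76.

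Tfcp2l1 (chromosome 1, 118627945 to 118685168, plus strand), a CP2-family factor that relays LIF signalling to the stem-cell network, did not pass the test. Its lowest, median and highest levels were 5.27, 16.7 and 63.4 CPM with SR1848 against 2.08, 15.1 and 71.02 CPM with DMSO, so each group covered nearly all of the range of the other. The log2 fold change was -0.01 (SE 0.16, edgeR adjusted p = 0.94), and the sign turned positive under upper-quartile scaling (0.15). With oocyte scaling it was -1.39 and past the threshold (adjusted p = 4.2e-13).

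Of the 3 members that are not transcription factors, Tcl1 and Lin28a were higher with SR1848 and Tdgf1 did not pass. Tcl1 (chromosome 12, 105216750 to 105222793, minus strand) was by far the most abundant member, with 274, 2188 and 9669 CPM in the lowest, median and highest SR1848 embryo against 459, 1388 and 3376 CPM with DMSO. SR1848 embryos were spread on both sides of the DMSO range, 25 lying above every DMSO embryo and 2 below. Tcl1 rose 1.82-fold with TMM (log2 fold change 0.86, SE 0.16, edgeR adjusted p = 1.1e-06) but was lower with oocyte scaling (-0.54, adjusted p = 2.0e-05), so its direction depends on the scaling. The tested transcripts of the oocyte sum had a median of -0.48 with oocyte scaling, close to Tcl1.

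Lin28a (chromosome 4, 134003330 to 134018841, minus strand) had 5.27, 22.3 and 85.2 CPM in the lowest, median and highest SR1848 embryo, against 2.37, 9.13 and 21.9 CPM with DMSO. Of the 80 SR1848 embryos 40 were above every DMSO embryo and 75 were above the DMSO median. It rose 2.47-fold (log2 fold change 1.30, SE 0.15, edgeR adjusted p = 2.8e-14), while oocyte scaling gave 0.03 and no call (adjusted p = 0.87). Tdgf1 (chromosome 9, 110939603 to 110946158, minus strand) had 0, 0.926 and 22.1 CPM in the lowest, median and highest SR1848 embryo, against 0, 1.22 and 11.7 CPM with DMSO, with a count in 63 of 80 SR1848 embryos and 36 of 50 DMSO embryos. The groups overlapped throughout, and the log2 fold change of 0.23 (SE 0.41, edgeR adjusted p = 0.61) rests on a median of 4 counts with SR1848 and 8 with DMSO. With oocyte scaling Tdgf1 was lower (-1.10, adjusted p = 0.014).

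In all, 5 of the 10 members were higher, 3 were lower and 2 were not called, so 8 were called, where 82.6% of all tested genes were. Their median log2 fold change was 0.55, beside 0.30 for all genes. With oocyte scaling 2 members were higher (Sox2 and Nanog) and 6 lower, where 9.02% of all genes were higher and 67.1% lower (76.1% called). A change of library size shifts all genes nearly alike, so by construction the distance from the median gene stays close: Pou5f1 stood 1.13 above the median log2 fold change with TMM and 1.17 above it with oocyte scaling, and Zfp42 stood at -2.36 and -2.05. No member was among the 1.58% of genes whose groups did not overlap at all.

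**Figure D2:**
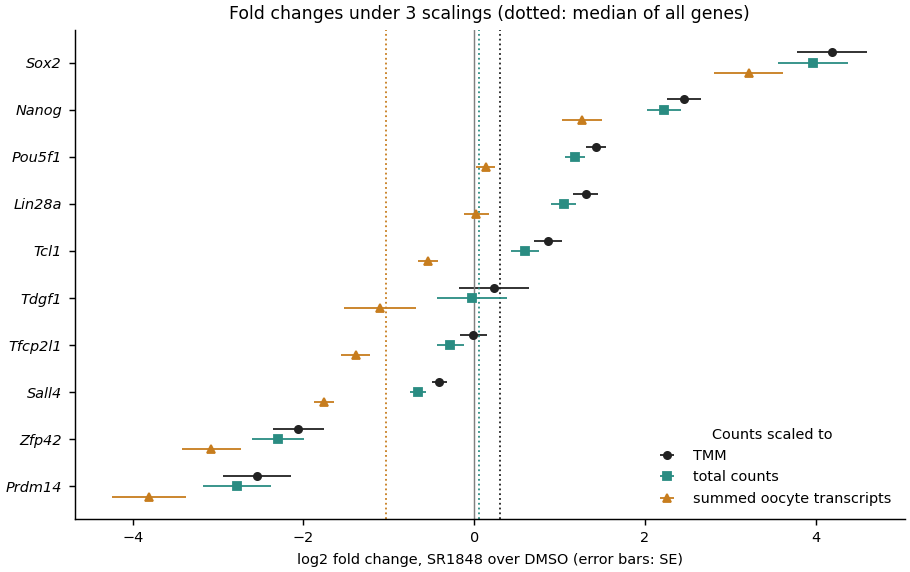
Log2 fold change of each factor, SR1848 over DMSO, on the horizontal axis with its SE as the bar, for counts scaled by TMM (circles), to total counts (squares) and to the summed oocyte transcripts (triangles); the dotted lines mark the median of all tested genes under each. Sox2 and Nanog stay right of 0 under all 3 scalings and Sall4, Zfp42 and Prdm14 left of it, while Tcl1 turns from 0.86 with TMM to -0.54 with oocyte scaling.

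Levels of different genes were compared per transcript length, as counts over annotated length scaled to the same sum in every embryo, with no test. Tcl1 led in both groups, with a median length-scaled level of 2455 in SR1848 embryos and 1791 in DMSO embryos. In SR1848 embryos Pou5f1 (71.5) and Sall4 (42.9) came next, then Nanog (15.7), Lin28a (15.6) and Tfcp2l1 (13.1), then Zfp42 (6.74), Sox2 (4.95), Tdgf1 (1.17) and Prdm14 (0). In DMSO embryos Zfp42 (64.7) and Sall4 (63.7) came after Tcl1, followed by Pou5f1 (29.5), Tfcp2l1 (6.90), Lin28a (5.58), Nanog (3.76), Prdm14 (2.60), Tdgf1 (1.33) and Sox2 (0). Between neighbours in the SR1848 order, the interquartile ranges were apart only for Tcl1 and Pou5f1 and for Sall4 and Nanog. In the DMSO order they were apart for Tcl1 and Zfp42, for Sall4 and Pou5f1 and for Pou5f1 and Tfcp2l1. Zfp42 thus ranked 7 with SR1848 and 2 with DMSO, and Pou5f1 ranked 2 with SR1848 and 4 with DMSO.

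Transcripts of the members did not all follow their gene. The table holds 37 transcripts of the 10 members, of which 18 could be tested: 10 were higher with SR1848, 4 were lower and 4 were not called, where 73.6% of all 25731 tested transcripts were called. The estimates divide reads shared by transcripts of a gene, so shifts between transcripts are less certain than the gene's sum. Of the Sall4 transcripts tested, only the 2534-bp form with 3 exons fell. It had a count in 29 of 80 SR1848 embryos and 38 of 50 DMSO embryos, with 0, 0 and 31.5 CPM in the lowest, median and highest SR1848 embryo against 0, 30.6 and 189 CPM with DMSO, and it was lower by a log2 fold change of -3.53 (SE 0.53, edgeR adjusted p = 1.8e-09). Its share of Sall4 counts was 3.51% with SR1848 and 28.4% with DMSO.

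The 5073-bp Sall4 transcript with 4 exons averaged 79.8 ± 39.3 CPM with SR1848 and 90.1 ± 47.3 CPM with DMSO, which was not called (log2 fold change -0.17, edgeR adjusted p = 0.23). It passed with total counts as library size (-0.31, adjusted p = 0.037). The 3741-bp transcript had a log2 fold change of -0.08 (adjusted p = 0.86). In the authors' deposited table the 2534-bp transcript stood at a log2 fold change of -3.85 and the 5073-bp transcript at -0.42, each with an adjusted p under 0.05 there.

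For Tfcp2l1, uncalled as a gene, 1 of 2 tested transcripts was called, and the difference between them was not tested. The 478-bp processed transcript with 3 exons averaged 3.51 ± 3.17 CPM with SR1848 and 1.31 ± 1.34 CPM with DMSO and was higher (log2 fold change 1.40, SE 0.35, edgeR adjusted p = 2.4e-04). Its share of the gene's counts was 17.6% with SR1848 and 5.97% with DMSO. The 9269-bp coding transcript with 15 exons stood at -0.33 (adjusted p = 0.081), and at -0.48 with total counts as library size, where it passed (adjusted p = 0.011). In the authors' deposited table the coding transcript was lower (log2 fold change -0.60, DESeq2 adjusted p = 0.0012) and the 478-bp transcript higher (1.24). Because the short transcript weighs more per base, the length-scaled Tfcp2l1 level had a median of 13.1 with SR1848 and 6.90 with DMSO although the CPM medians were close.

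**Figure D3:**
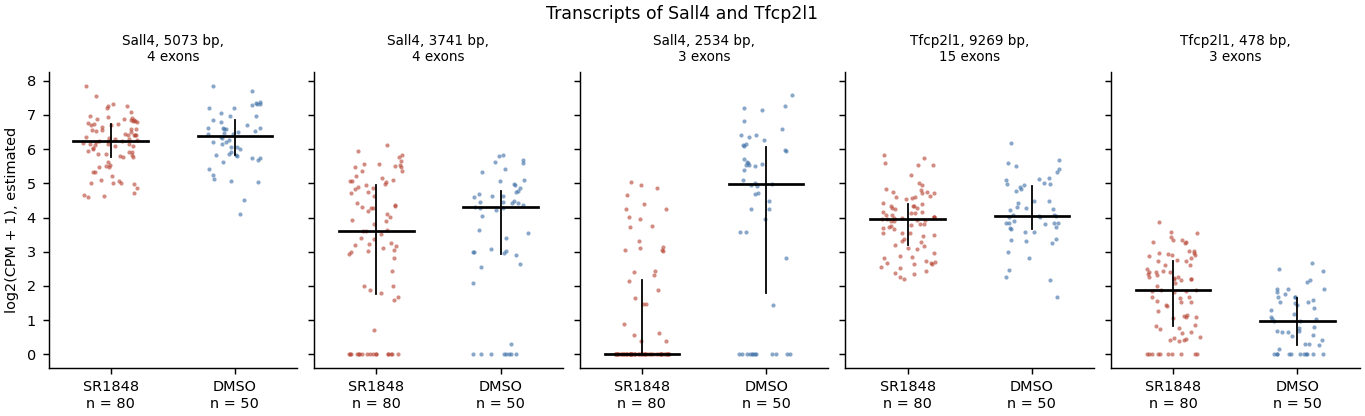
Estimated level of 3 Sall4 and 2 Tfcp2l1 transcripts in every embryo, as log2(CPM + 1), with SR1848 embryos (n = 80) left of DMSO embryos (n = 50); horizontal lines are medians and vertical lines interquartile ranges. The 2534-bp Sall4 transcript has a median of 0 CPM with SR1848 and 30.6 CPM with DMSO, while the 5073-bp transcript covers nearly the same range in both.

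In Zfp42, Nanog and Tcl1 the tested transcripts moved with the gene. Both tested Zfp42 transcripts were lower, the 1772-bp form by a log2 fold change of -2.45 and the 1837-bp form by -1.86. The 1995-bp Nanog transcript, no other being tested, was higher (2.66, edgeR adjusted p = 3.6e-19) and held 94.0% of Nanog counts with SR1848 and 74.9% with DMSO. The untested 2211-bp Nanog form averaged 1.13 ± 3.87 CPM with SR1848 and 1.17 ± 2.02 CPM with DMSO. It held 4.76% of Nanog counts with SR1848 and 25.1% with DMSO. All 4 tested Tcl1 transcripts were higher with TMM, by 0.57 to 1.29, and the 1398-bp form held 97.2% of Tcl1 counts with SR1848 and 97.5% with DMSO. With total counts as library size the 760-bp Tcl1 transcript and the 435-bp Pou5f1 transcript no longer passed.

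Embryos of a group differ among themselves, and the 7 members with a mean of at least 5 CPM were correlated across the embryos of each group, together with Nr5a2 and the oocyte sum, on log2(CPM + 1). There were 72 correlations in this family, with two-sided permutation tests of 100000 resamples and Benjamini-Hochberg adjustment, and a pair was called on Spearman's rho. Of 21 member pairs, 8 were called in SR1848 embryos (3 positive, 5 negative) and 4 in DMSO embryos (3 positive, 1 negative). For scale, 5% of all gene pairs had a rho under -0.365 and 5% over 0.387 in SR1848 embryos, and the same bounds were -0.299 and 0.314 in DMSO embryos. Among the pairs called in SR1848 embryos, only Zfp42 with Tcl1 (-0.38) and Nanog with Tfcp2l1 (-0.37) lay beyond these bounds, and in DMSO embryos all 4 did. The share of all gene pairs that would pass the same test was not computed. The counts of called pairs thus cannot be read as a trait of the members. With oocyte scaling only Nanog with Zfp42 was still called among these 8, and none of the 4. That scaling divides both genes of a pair by the same sum, which by itself changes rho.

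Pou5f1 went up and down with Tcl1 in both groups, with rho 0.33 (adjusted p = 0.017) and r 0.37 (adjusted p = 0.0044) over 80 SR1848 embryos and rho 0.45 (adjusted p = 0.0086) and r 0.49 (adjusted p = 0.0031) over 50 DMSO embryos. Without the 2 embryos farthest from the Pou5f1 median, r was 0.30 with SR1848 and 0.45 with DMSO. Pou5f1 and Lin28a were also positively related in both groups, with rho 0.31 with SR1848 (adjusted p = 0.025) and 0.39 with DMSO (adjusted p = 0.023). In SR1848 embryos both pairs lay inside the bounds of all gene pairs. There, 11.3% of genes had a higher rho to Pou5f1 than Tcl1 had, and 13.4% a higher one than Lin28a. In DMSO embryos these shares were 2.82% for Tcl1 and 6.00% for Lin28a. With oocyte scaling neither pair was called in either group, and rho of Pou5f1 and Tcl1 turned to -0.04 in SR1848 embryos.

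Nanog ran the other way. Among SR1848 embryos its rho was -0.37 with Tfcp2l1 (adjusted p = 0.0068), -0.31 with Tcl1 (adjusted p = 0.023) and -0.29 with Sall4 (adjusted p = 0.037), and with oocyte scaling the Tfcp2l1 and Sall4 pairs turned positive, to 0.03 and 0.27. With Zfp42 it was positive in SR1848 embryos (rho 0.35, adjusted p = 0.011, r 0.32), and this pair was also called with oocyte scaling. That scaling divides both by the same sum, with which both had a negative rho (Nanog -0.45, Zfp42 -0.60), so this call is no separate support. Nanog and Pou5f1 had a rho of -0.24 in SR1848 embryos, which was not called (adjusted p = 0.11), and of -0.47 in DMSO embryos (adjusted p = 0.0067, r -0.41), where the call was lost with oocyte scaling (rho -0.33, adjusted p = 0.076). The Nanog level had a rho of -0.37 with the total count of the SR1848 embryos. The part of depth in the Nanog pairs was not tested further than by leaving out the shallow embryos. That left 8 calls with SR1848, 7 of them among the original 8, and the same 4 with DMSO. The call that was lost was Nanog with Tcl1.

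The largest rho in each group was that of Tcl1 with the oocyte sum. Tcl1 had a rho of 0.71 with the oocyte sum over SR1848 embryos and 0.83 over DMSO embryos (adjusted p = 2.4e-04 for each), and r without the 2 farthest embryos was 0.70 with SR1848 and 0.80 with DMSO. Pou5f1 had a rho of 0.36 with SR1848 and 0.55 with DMSO, and Lin28a of 0.32 with SR1848 and 0.45 with DMSO, all called. Zfp42 had a rho of -0.60 (adjusted p = 2.4e-04) and Nanog of -0.45 (adjusted p = 7.2e-04) in SR1848 embryos, while in DMSO embryos Zfp42 (0.14) and Nanog (-0.25) were not called. The difference between the groups was not tested. The raw p of 1e-05 behind the Tcl1 and Zfp42 values is the smallest that 100000 resamples can give. No member was called with Nr5a2 in either group, where rho ran from -0.10 to 0.16 with SR1848 and from -0.25 to 0.29 with DMSO. With oocyte scaling, pairs with Nr5a2 were called: Sall4 (rho 0.31) and Zfp42 (0.30) in SR1848 embryos, and Nanog (0.56), Sall4 (0.52), Zfp42 (0.46) and Tcl1 (-0.42) in DMSO embryos. Oocyte scaling divides both genes of a pair by the same sum, which by itself can make them correlate, and its part in these calls was not tested. Without that scaling the levels are shares of the same library, so a rise of some messages lowers the rest.

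**Figure D4:**
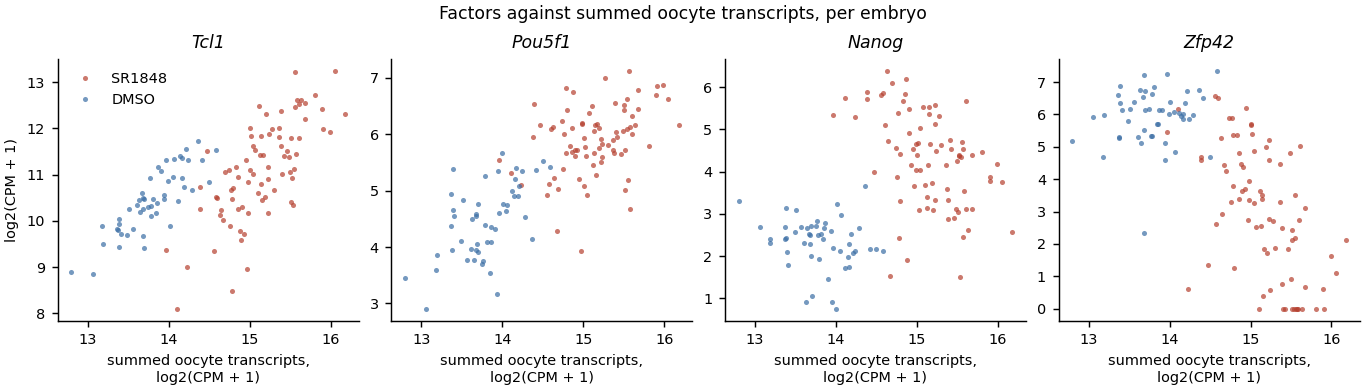
Level of Tcl1, Pou5f1, Nanog and Zfp42 in each embryo against the summed oocyte transcripts of the same embryo, both as log2(CPM + 1), with SR1848 embryos in red and DMSO embryos in blue. Tcl1 climbs with the oocyte sum in both groups (rho 0.71 with SR1848 and 0.83 with DMSO), and Zfp42 declines with it among SR1848 embryos (rho -0.60), with 11 embryos at 0.

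**Figure D5:**
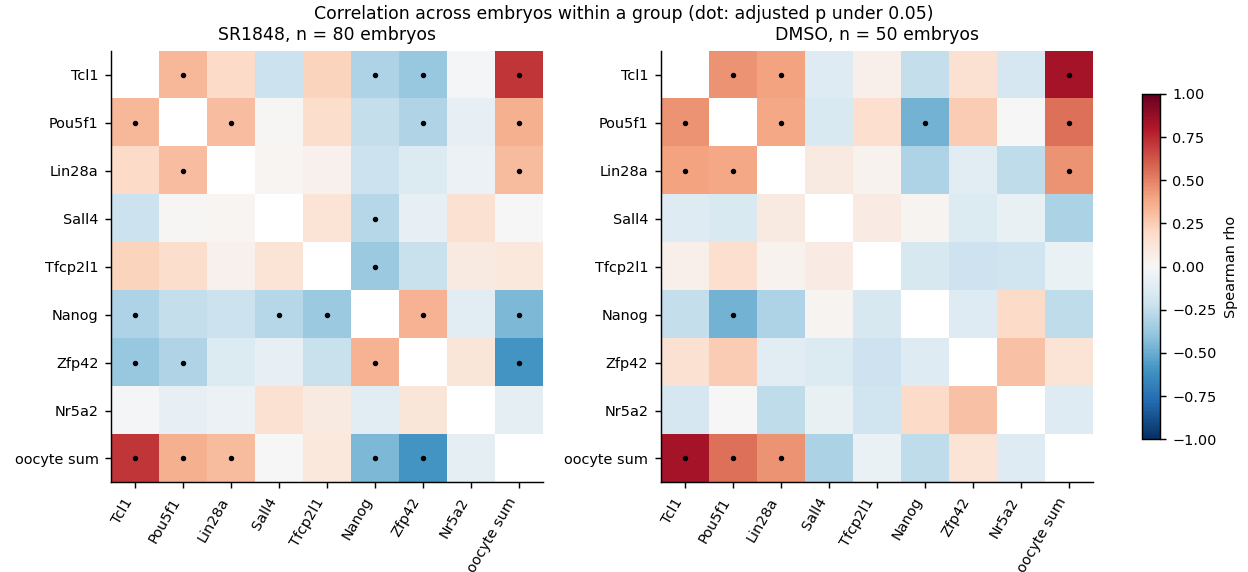
Spearman's rho across embryos within SR1848 (left, n = 80) and DMSO (right, n = 50) for 7 factors, Nr5a2 and the oocyte sum, from -1 (blue) to 1 (red), with a dot where the adjusted p is under 0.05. The dots number 8 member pairs with SR1848 and 4 with DMSO, and the row of Nr5a2 holds none.

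The genes most like each member across the 80 SR1848 embryos were ranked by rho, among genes with a mean of at least 20 CPM, as a description with no test. Tcl1 was nearest to Tcl1b2 (0.93), Mphosph6 (0.91) and Tcl1b1 (0.90), and the Tcl1b genes are near relatives of Tcl1 that lie beside it and may share reads. Nanog was nearest to Zfp131 (0.79), Cct6a and Rmi2, and Zfp42 to Manf (0.76), Set and Dnajb9, of which Manf and Dnajb9 encode endoplasmic-reticulum stress proteins. Pou5f1 was nearest to Cox10 (0.68), Sap130 and Mtfr1l. The nearest genes of Sall4 (Coro1c, 0.58), Lin28a (Aldh18a1, 0.47) and Tfcp2l1 (Zscan21, 0.45) were less alike.

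Partners of the members were read from 10 lists of 159 genes, of which 134 were tested: 71 were higher and 49 lower with TMM (52.99% and 36.6%, beside 47.2% and 35.4% of all genes), and 10 higher and 95 lower with oocyte scaling, where 9.02% of all genes were higher and 67.1% lower. These shares are near those of all genes, and the counts of the single lists are descriptions to be set beside the same all-gene shares. Among other transcription factors of the naive stem-cell state, 7 of 19 were higher and 10 lower with TMM, with a median log2 fold change of -0.30, and 2 higher and 14 lower with oocyte scaling. Nr5a2 itself (-3.18 with TMM) is on this list, counted among its 10 lower genes and among the 49 lower partner genes. Zfp143, an activator of Nanog in stem cells, averaged 19.2 ± 12.8 CPM with SR1848 and 161 ± 30.4 CPM with DMSO (log2 fold change -3.06), and Zfp281, a zinc-finger partner of the circuit, 19.01 ± 11.4 CPM with SR1848 and 105 ± 38.6 CPM with DMSO (-2.46). Mycn, also a member of the LIN28 list as an activator of growth genes, rose to 58.7 ± 61.03 CPM with SR1848, against 5.87 ± 6.20 CPM with DMSO (3.31). Rif1, the most abundant of the list, was slightly lower (-0.30), a call lost with upper-quartile scaling (adjusted p = 0.079).

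LIF signalling through the gp130 receptor maintains mouse stem cells, and 8 of its 11 tested genes were higher and 1 lower with TMM, with a median of 0.86, against 2 higher and 4 lower with oocyte scaling. Of all genes, 47.2% were higher and 35.4% lower with TMM, and 9.02% higher and 67.1% lower with oocyte scaling. Il6st, which encodes gp130, averaged 216 ± 101 CPM with SR1848 and 57.2 ± 22.7 CPM with DMSO (log2 fold change 1.92), and the kinase gene Jak1 257 ± 150 CPM with SR1848 and 77.2 ± 36.3 CPM with DMSO (1.74). Both were also higher with oocyte scaling, whereas Jak2 was higher with TMM (0.74) and lower with oocyte scaling (-0.58), and Ptpn11 lost its call (1.41 with TMM, 0.04 with oocyte scaling).

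Genes used as readouts of the pluripotent state were mostly lower with TMM, 10 of 13 tested, with 3 higher and a median of -1.77. Of all genes, 35.4% were lower and 47.2% higher with TMM. With oocyte scaling 10 readout genes were lower and 1 higher, where 67.1% of all genes were lower and 9.02% higher. Dppa4, a SAP-domain chromatin factor, averaged 24.6 ± 18.7 CPM with SR1848 and 444 ± 111 CPM with DMSO, 18.1-fold lower (log2 fold change -4.18, edgeR adjusted p = 3.0e-48). Its partner Dppa2 (-2.45) and the F-box gene Fbxo15 (-2.86) were lower too. Dppa3 (Stella), a maternal factor, averaged 1274 ± 620 CPM with SR1848 and 2701 ± 719 CPM with DMSO (-1.08). All 4 were also lower with oocyte scaling. The 3 readout genes that were higher with TMM were Utf1 (2.42), Tet2 (1.17) and Tet1 (0.97). Pou5f1, Sox2 and Nanog messages were higher with TMM while 10 of 13 readout genes were lower in the same embryos. With oocyte scaling Pou5f1 was not called, and the list was chosen with earlier results of these data known.

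In the LIN28 and let-7 list 7 of 16 genes were higher and 6 lower with TMM, and 1 higher and 12 lower with oocyte scaling. The paralogue Lin28b (1.30) and the mRNA-binding gene Igf2bp3 (1.12) were higher with TMM and at -0.03 and -0.23 with oocyte scaling, where neither passed. Of the Nodal and Cripto genes 7 of 12 were higher and 3 lower with TMM, and 1 higher and 7 lower with oocyte scaling. Furin, which cleaves the Nodal precursor, was higher with both scalings (1.94 with TMM), Gdf3, a Nodal-related ligand, was lower with both (-2.52 with TMM), and Smad3 (1.05) and Hspa5 (0.62), a chaperone that binds Cripto, were at -0.24 and -0.59 with oocyte scaling.

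In the TCL1 and AKT list 15 of 19 genes were higher and 3 lower with TMM, with a median of 0.72, but 0 higher and 15 lower with oocyte scaling. The shares of all genes were 47.2% higher and 35.4% lower with TMM, and 9.02% higher and 67.1% lower with oocyte scaling. Akt1 (1.19), Foxo3 (1.18) and Tcl1b1 (0.78) were higher with TMM but at -0.13, -0.21 and -0.60 with oocyte scaling. The 5 Tcl1b genes, near copies of each other, stood between 0.72 and 0.83, close to Tcl1 itself at 0.86, and their counts are uncertain for that reason. These 5 are among the 15 higher genes of the list, so the 15 are not all separate AKT-pathway genes. Pdk1 (1.12), a pyruvate dehydrogenase kinase gene, is also among the 15. Beside the fall of Prdm14, 8 of 14 genes of its partner list were higher and 4 lower with TMM, and 0 higher and 11 lower with oocyte scaling. The corepressor Cbfa2t2, which PRDM14 needs in stem cells, was lower with both scalings (-1.29 with TMM), as was the Polycomb accessory gene Mtf2 (-2.48), and Dnmt3l, a cofactor of DNA methylation, was higher with TMM (1.27) and at -0.08 with oocyte scaling.

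In the SALL4 and NuRD list 5 of 13 genes were higher and 6 lower with TMM, and 0 higher and 12 lower with oocyte scaling. The deacetylase gene Hdac1 averaged 50.8 ± 24.2 CPM with SR1848 and 266 ± 88.5 CPM with DMSO (log2 fold change -2.39), and Mta3 (-1.53) and Gatad2b (-1.37) were lower as well, all 3 also with oocyte scaling, while Gatad2a was higher with TMM (0.97) and lower with oocyte scaling (-0.35). Among paralogues of the members, 9 of 15 were higher and 6 lower with TMM, and 3 higher and 9 lower with oocyte scaling. Sox17, an endoderm factor related to Sox2, averaged 15.01 ± 25.3 CPM with SR1848 and 0.0629 ± 0.324 CPM with DMSO (log2 fold change 7.33), the CP2 factor Grhl2 was lower (-2.22), and Tfcp2 was higher with TMM (0.96) and lower with oocyte scaling (-0.35).

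Of the lineage factors that oppose pluripotency, 6 of 12 could be tested, with 3 higher and 3 lower with TMM, and 1 higher and 4 lower with oocyte scaling. Tead4, which directs the trophectoderm program, averaged 0.488 ± 1.78 CPM with SR1848 and 28.5 ± 16.1 CPM with DMSO (log2 fold change -5.84), and it was also lower with oocyte scaling. Id2, an inhibitor of basic helix-loop-helix factors, averaged 316 ± 211 CPM with SR1848 and 31.2 ± 35.97 CPM with DMSO (3.34), and it was also higher with oocyte scaling. Gata3, a trophectoderm factor, was higher with TMM (1.28) and at -0.0037 with oocyte scaling.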

How the data were processed

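Single-embryo RNA was measured in 130 libraries, 80 SR1848 and 50 DMSO, grouped by the titles and treatment labels. The authors deposited kallisto estimated counts per transcript, of which 28.1% are not whole (tolerance 1e-06). Per the submitters' processing notes, kallisto 0.46.1 was used with bcl2fastq and Trim Galore 0.6.2, and DESeq2 1.32.0 with R 3.5.1. The notes name mm10 and hg19 without saying what each served for. The authors also deposited their DESeq2 comparison per transcript, with a log2 fold change, a base mean (signal) and an adjusted p-value, used here only where named. A deposited normalized table was not used.

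Counts of 119358 entries were joined to genes by the deposited table (117194 transcripts) or GENCODE M21 (364). The 1795 without a gene held 0.811% of counts and 5 entries that are no mouse transcripts 0.0258%, and both stayed out. Sums per gene (36040 genes, 30325 with a count) were rounded. Gene coordinates are GENCODE M21 on GRCm38, and those of the deposited table were not used, since its gene starts differ from GRCm38 for all 10 members. Lengths covered 98.5% of counts.

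Genes passing filterByExpr were tested with edgeR 4.0.16 in R 4.3.3 (TMM, robust glmQLFit, glmQLFTest, two-sided, Benjamini-Hochberg over 13192 genes, threshold 0.05). Each SE is the size of the log2 fold change divided by the square root of F, and SDs are between embryos. Reads carry no molecular identifiers. The edgeR script was tested on simulated data. Alternatives were RLE, upper-quartile, total-count and oocyte scaling, no filter, a 5 CPM filter, DESeq2 1.42.0, limma 3.58.1 voom, depth as a covariate, leaving out 11 SR1848 and 2 DMSO embryos of low depth, and the embryo number as a block.

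Members and lists were chosen with earlier results of these data known. The genes named are the members, Nr5a2, a part of those given by a rule (the 3 smallest p and the highest mean CPM of each list) and the 3 nearest genes by rho. Naming Tcl1b2 to Tcl1b5 as a group, Utf1, Tet1 and Tet2, and the transcripts, was decided after their values were seen. Embryos that share a number (50 pairs) did not deviate together, so the numbers were not taken as pairs. No library looked like a copy of another, since chi-square per gene between libraries of a group was at least 22.7 with SR1848 and 20.1 with DMSO. An item of the marker lists is not reported here.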

Additional observations from a re-analysis of the deposited data

How the results depend on the processing

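Oocyte scaling moved the counts of members, partners and correlated pairs by over 1.5 times: 2 members were higher and 6 lower, 10 partner genes were higher and 95 lower, and 4 member pairs were called with SR1848 (1 of them among the 8) and 1 with DMSO (not among the 4). The pair Zfp42 with Tcl1 lost its call (rho -0.22, adjusted p = 0.14). It reversed Tcl1 (-0.54), Tdgf1 (-1.10), Jak2 (-0.58), Igf2bp3 (-0.23), Lin28b (-0.032), Smad3 (-0.24), Hspa5 (-0.59), Foxo3 (-0.21), Akt1 (-0.13), Tcl1b1 (-0.60), Dnmt3l (-0.079), Gatad2a (-0.35), Tfcp2 (-0.35) and Gata3 (-0.0037), and in SR1848 embryos rho of Pou5f1 with Zfp42 (0.16), Pou5f1 with Tcl1 (-0.038), Nanog with Sall4 (0.27) and Nanog with Tfcp2l1 (0.029). The shift of the fold changes follows from the larger oocyte sum of SR1848 embryos by construction, the cause of the changed rho was not tested, and whether that sum or TMM is closer to RNA per embryo was not tested. Zbed3 and Spin1 made up 35.6% and 30.5% of the sum with SR1848 and 18.9% and 30.9% with DMSO.

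The uncalled Tfcp2l1 turned positive with upper-quartile factors (0.15), the depth covariate (0.040), without low-depth embryos (0.030) and with limma-voom (0.10), and the uncalled Tdgf1 (-0.022) and its 1932-bp transcript (-0.060) turned negative with total counts. Without a filter 17629 genes were called, where more genes were tested. With the 5 CPM filter Sox2, Prdm14 and Tdgf1 have no value, which leaves 4 members higher and 2 lower. With total-count CPM the pairs Pou5f1 with Zfp42 and Nanog with Sall4, and without low-depth embryos Nanog with Tcl1, were not called (with total counts 3 pairs were negative, against 5), and the cause was not tested.

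Same-numbered embryos correlated by 0.025 in the median (-0.226 to 0.139, 3 of 50 over 0.1), and no control correlated best with its own number. With the replicate block 10076 genes were called, against 10243 in the same embryos with no block (chosen after seeing the data), and 5 members were higher and 3 lower in both. The block gave larger changes for Sox2 (5.03, against 4.10 in the same embryos with no block), Prdm14 (-4.23, against -3.15) and Zfp42 (-2.88, against -1.89). Counts limit Sox2, Prdm14 and Tdgf1 most.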
